A study of Mus musculus with 16 samples.

Results

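Interferon-stimulated genes were followed in dorsal skin of iK5-TERT mice after a Tert transgene was silenced. The genes were chosen by name, as every probe set of the array table whose gene symbol was Irf7, Irf9, Ifit1, Ifit2, Ifit3, Isg15, Usp18, Oasl2 or Rsad2. Of these 9 genes, 8 had a probe set that carried their symbol alone, on 10 probe sets of the 45101 in the table, and all 8 were among the 12580 genes that passed the filter on low values. The only probe set of Isg15 is annotated to Isg15 and to the pseudogene Gm9706 together, so it was kept apart. All mice carried K5-tTA, which drives a tetracycline transactivator from the keratin 5 promoter of basal keratinocytes, and tetop-TERT, which the transactivator switches on unless doxycycline is present. All had received doxycycline (5 µg/ml) in the drinking water early in life, and at day 60 the labels give their follicles as in anagen, the growth phase of the hair cycle. The TERT-off cohort was injected with doxycycline (8 µg/g) and the TERT-on cohort with PBS, and no mouse lacked the transgenes. Skin biopsies of 3 cm² from 2 mice of each cohort were profiled at 0, 6, 12 and 24 h, 1 array each and 16 in all. Replicate numbers within a cohort were taken as mice. Biopsies of the TERT-off cohort at 0 h carry an injected label but were read here as the state at the moment of injection. Since every TERT-off mouse and no TERT-on mouse was injected with doxycycline, loss of Tert and an effect of the drug cannot be told apart.

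Interferons are cytokines that cells release after sensing viral nucleic acids or tissue damage. Type I interferons bind a receptor whose kinases, JAK1 and TYK2, start a signal that leads to the complex ISGF3, of which IRF9 and STAT2 are subunits and which enters the nucleus and binds the interferon-stimulated response element (ISRE) in promoters. The genes so induced include antiviral effectors (Ifit1, Ifit2, Ifit3, Oasl2, Rsad2), a ubiquitin-like modifier (Isg15), the amplifying transcription factor Irf7 and the brake Usp18, which takes ISG15 off its targets and blocks the receptor. In skin, keratinocytes, fibroblasts and resident and incoming leukocytes all respond to interferon.

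Promoter sequence was examined because the 8 genes with a probe set of their own, which leave out Isg15, moved together from array to array, as the values below show. RefSeq windows (GRCm38.p6) of 300 bases, 250 before and 50 after a gene's start, were searched on both strands for the ISRE core, spelled here as GAAA, any 2 bases and GAAA again, which reads TTTC, any 2 bases and TTTC on the other strand. Windows, 10 in all, were at hand for 8 of the 9 genes, all but Usp18. The motif stood in the windows of 4 of these genes, Ifit1, Ifit3, Isg15 and Rsad2. Counted by window and not by gene, it stood in 1131 of all 32851 windows, or 3.44%. The windows of Irf7, Irf9, Ifit2 and Oasl2 held no match to these letters. The stretches around the matches are printed 5′ to 3′ on the strand of the gene, with the matches in capitals, to show how they are spaced.
Ifit1: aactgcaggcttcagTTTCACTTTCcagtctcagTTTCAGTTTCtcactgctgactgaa
Ifit3: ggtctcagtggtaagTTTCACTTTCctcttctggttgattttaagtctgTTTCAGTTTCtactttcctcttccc
Isg15: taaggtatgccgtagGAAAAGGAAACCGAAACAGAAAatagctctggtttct
Rsad2: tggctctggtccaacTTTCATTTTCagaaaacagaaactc
The Ifit1 stretch is chr19:34640770-34640828 on the plus strand, from 119 to 61 bases before the start, and holds 2 matches. The Ifit3 stretch is chr19:34583358-34583431 on the plus strand, from 171 to 98 bases before the start, also with 2 matches. Both genes carry the same pair of matches, TTTCACTTTC followed by TTTCAGTTTC, in the same order. The Isg15 stretch is chr4:156200860-156200911 on the minus strand, from 93 to 42 bases before the start, and its 3 matches overlap in 1 run. The Rsad2 stretch is chr12:26456548-26456587 on the minus strand, from 135 to 96 bases before the start, with 1 match. A match is a run of letters and not a measured binding site.

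The deposited values are linear intensities, of which the median over the whole table was 34.4. Values under 7.71, its 20th percentile, were raised to that floor before log2 was taken. Differences below are on the log2 scale, with the TERT-on mean taken from the TERT-off mean, each with its standard error (SE) from 1 limma fit to all arrays, with the mouse as a random block and Benjamini-Hochberg adjustment over all 25563 probe sets tested. A gene is called higher or lower where its adjusted p is under 0.05. The array medians ran from 32.9 to 36.3. At 0 h, TERT-on replicate 1 had a 5′ to 3′ ratio of Gapdh signal of 0.0599, against 0.977 to 1.12 elsewhere. This array thus stood apart in that ratio, and no other control ratio was read. In the check of the labels, Tert lay between 185 and 357 at 0 h and afterwards between 8.32 and 16.1 in TERT-off and between 22.6 and 64.6 in TERT-on skin (log2 difference over 6 to 24 h −1.76, SE 0.26, limma adjusted p = 0.00278). Tert was thus lower than at 0 h on every later array of both cohorts. Krt5, the keratin of basal keratinocytes, was at 2435 or more on every array. Hair shaft keratins, made by growing follicles, went against the anagen label from 0 h on in 1 mouse, TERT-off replicate 1. Their summed intensity over 12 genes was 274 to 380 on all 4 of its arrays, against 7833 to 28171 at 0 h in the other 3 mice. In TERT-off replicate 2 the sum was 28171 at 0 h and 22800 at 6 h, but 1268 at 12 h and 710 at 24 h. Every TERT-on array was at 6490 or more.

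Over 6 to 24 h, all 8 interferon-stimulated genes had a higher mean in the TERT-off cohort. The transcription factor Irf9 and the antiviral genes Ifit1, Ifit3 and Oasl2 passed the test, with differences from 1.59-fold to 4.09-fold. Ifit2, Irf7, Rsad2 and Usp18 lay between 1.55-fold and 2-fold higher and did not pass. Thus 4 of 8 were called higher, where 16.9% of all genes were (29.5% in either direction), and none was called lower. The median difference of the 8 genes was 0.95 on the log2 scale, against 0.04 over all genes, and 7 of 8 had an unadjusted p under 0.05. In all 8, the means of both TERT-off mice lay above those of both TERT-on mice, as they did in 39.6% of all genes. In none of the 8 were the 6 TERT-off arrays all above the 6 TERT-on arrays, a pattern met in 6.59% of all genes. In whole skin, more cells of a type and more RNA per cell cannot be told apart.

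**Figure D1:**
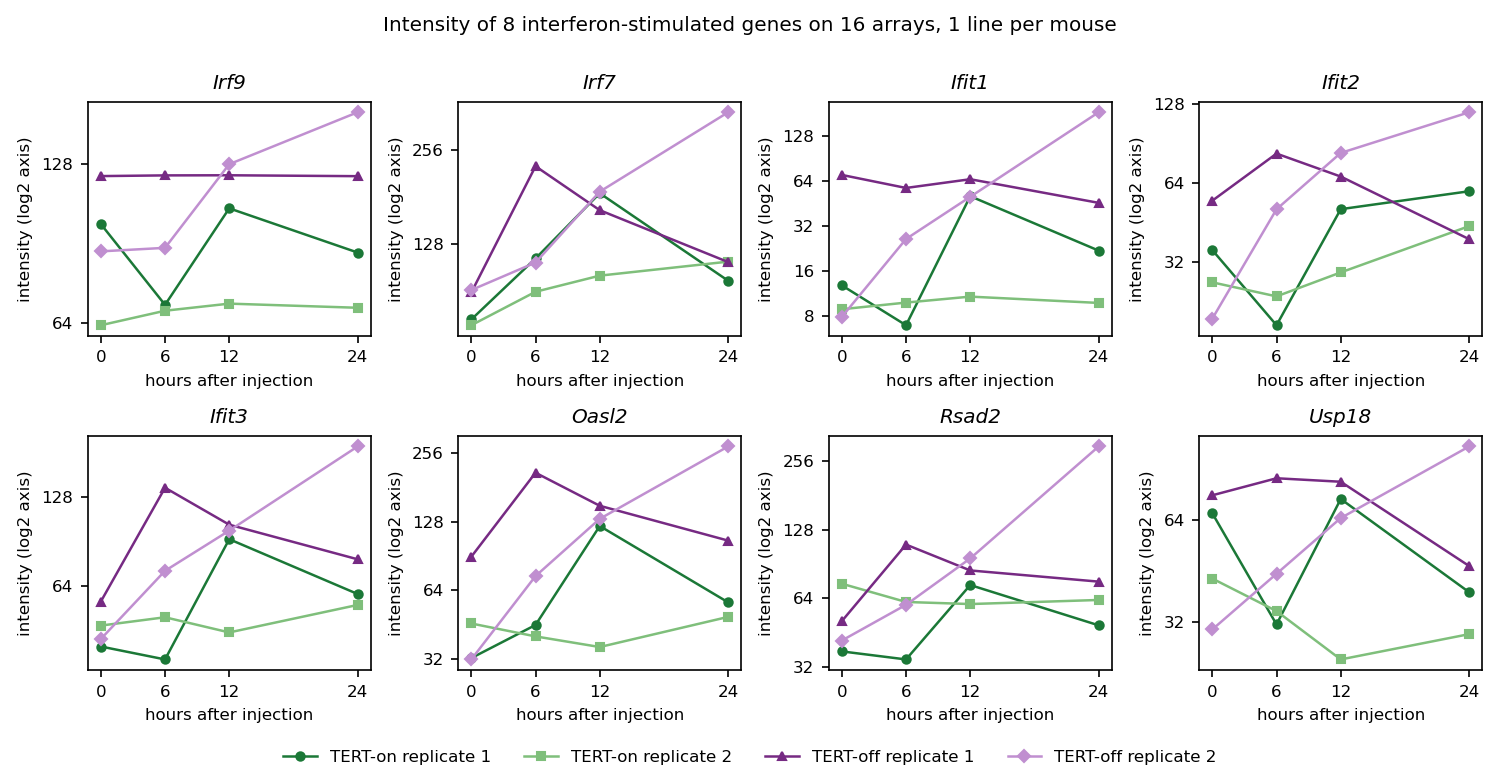
Intensity on a log2 axis against time (0, 6, 12 and 24 h after injection) for the 8 genes, where each line is a mouse: purple for the 2 TERT-off and green for the 2 TERT-on mice. TERT-off replicate 2 had the highest value of all 16 arrays at 24 h in each of the 8 panels, TERT-off replicate 1 was highest after 0 h at 6 h in 6 panels, and TERT-on replicate 1 at 12 h in 7.

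Among the transcription factors, Irf9, the DNA-binding subunit of ISGF3, differed with the smallest relative error. At 0, 6, 12 and 24 h its intensity was 121, 122, 122 and 121 in TERT-off replicate 1, and it was 87.4, 88.7, 128 and 160 in TERT-off replicate 2. In TERT-on replicate 1 it was 98.4, 69.2, 105 and 86.9, and in TERT-on replicate 2 it was 63.3, 67.4, 69.5 and 68.3. One TERT-off mouse was thus level throughout and the other had higher values at 12 and 24 h than before, and of the 6 TERT-off arrays after 0 h only that of replicate 2 at 6 h lay below the highest TERT-on array. The difference over 6 to 24 h was 0.67 (SE 0.17, limma adjusted p = 0.0164).

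Irf7, the factor that amplifies type I interferon production, moved more within each cohort. In TERT-off replicate 1 it went from 89.8 before injection to 227, 164 and 112, and in TERT-off replicate 2 from 91.5 to 112, 188 and 337. In TERT-on replicate 1 it went from 73.7 to 115, 186 and 97.9, and in TERT-on replicate 2 from 70.7 to 90.3, 102 and 113. It was above its 0 h value on every later array of both cohorts, and the cohorts overlapped, with 3 of 6 TERT-off arrays below the highest TERT-on array. The difference was 0.63 (SE 0.29) and did not pass (limma adjusted p = 0.126).

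The Ifit genes encode proteins that bind foreign RNA and block its translation. Ifit1 had the largest difference of the 8 genes. Over the 4 times it was at 69.9, 57.2, 65.4 and 45.5 in TERT-off replicate 1, while TERT-off replicate 2 was at 7.84, 26.0, 49.9 and 184. The TERT-on values were 12.7, 6.89, 50.4 and 21.8 in replicate 1 and 8.82, 9.77, 10.7 and 9.72 in replicate 2. It was therefore high in TERT-off replicate 1 already before the injection, near the floor at 0 h in the other mice, and on 1 TERT-on array, replicate 1 at 6 h, under the floor. Its difference over 6 to 24 h of 2.03 (SE 0.62), fitted with that array at the floor, passed (limma adjusted p = 0.0326), with 3 of 6 TERT-off arrays above every TERT-on array.

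Ifit3 was at 56.5, 138, 103 and 78.7 in TERT-off replicate 1 and at 42.1, 71.9, 98.5 and 191 in TERT-off replicate 2. The TERT-on mice were at 39.7, 35.9, 92.1 and 59.9 (replicate 1) and at 46.8, 49.9, 44.3 and 55.0 (replicate 2). All 4 mice started within a narrow range, and the TERT-off arrays then lay above every TERT-on array but that of replicate 1 at 12 h, which lay above 2 of them. The difference was 0.995 (SE 0.28, limma adjusted p = 0.0239). Whether this probe set also reads Ifit3b, a close copy of Ifit3 that is not analysed here, was not tested.

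Ifit2 was at 54.9, 82.8, 67.7 and 39.2 in TERT-off replicate 1 and at 19.6, 50.9, 83.3 and 119 in TERT-off replicate 2. In TERT-on replicate 1 it was at 35.6, 18.5, 50.9 and 59.6, and in TERT-on replicate 2 at 26.9, 23.8, 29.3 and 43.9. At 24 h the cohorts overlapped, with TERT-off replicate 1 below both TERT-on mice. Its difference of 1.00 (SE 0.35) missed the threshold (limma adjusted p = 0.0527).

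Oasl2, a relative of the 2′-5′ oligoadenylate synthetases that carries ubiquitin-like domains, was at 89.8, 210, 150.2 and 106 in TERT-off replicate 1 and at 31.9, 73.9, 132 and 273 in TERT-off replicate 2. TERT-on replicate 1 was at 32.3, 45.1, 122 and 56.7 and TERT-on replicate 2 at 45.8, 40.2, 36.1 and 48.9. The pattern was that of Ifit3, with an early peak in 1 TERT-off mouse, a late one in the other and a single high TERT-on array. The difference was 1.44 (SE 0.42, limma adjusted p = 0.0263).

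Rsad2 encodes viperin, a radical SAM enzyme that makes a chain-terminating nucleotide, and was read by 3 probe sets that gave different calls. The probe set with the highest mean, which stood for the gene, was at 50.7, 110.1, 84.7 and 75.7 in TERT-off replicate 1 and at 41.7, 59.9, 95.7 and 297 in TERT-off replicate 2. It was at 37.4, 34.5, 73.1 and 48.7 in TERT-on replicate 1 and at 74.1, 61.6, 60.3 and 62.9 in TERT-on replicate 2. All TERT-off arrays after 0 h but that of replicate 2 at 6 h lay above every TERT-on array, and the difference was 0.90 (SE 0.35, limma adjusted p = 0.0745). A further probe set, at 36.3 or less except for 122 in TERT-off replicate 2 at 24 h, gave 1.155 (SE 0.32) and passed (limma adjusted p = 0.0219). The third has no value on that array, was fitted without it, and gave 0.38 (SE 0.26, limma adjusted p = 0.291).

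Usp18, the protease that removes ISG15 and restrains receptor signalling, was at 75.9, 85.2, 83.2 and 46.9 in TERT-off replicate 1 and at 30.5, 44.5, 65.0 and 106 in TERT-off replicate 2. In TERT-on replicate 1 it was at 67.2, 31.6, 74.0 and 39.3, and in TERT-on replicate 2 at 43.1, 34.6, 24.9 and 29.6. In TERT-on skin it was lower over 6 to 24 h than at 0 h in both mice, by values of −0.57 and −0.55 on the log2 scale that did not pass the test as a cohort (−0.56, SE 0.45, limma adjusted p = 0.508). The cohort difference over 6 to 24 h was 0.91 (SE 0.35, limma adjusted p = 0.0783).

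The probe set that Isg15 shares with Gm9706 cannot be assigned to either. Its 2 highest values were 508 in TERT-off replicate 2 at 24 h and 300 in TERT-on replicate 1 at 12 h, the arrays on which the mean of the other 8 genes was highest within each of these mice. It was 166 at 0 h and 152 at 6 h in TERT-off replicate 1, so it lacked the higher 6 h value of the other genes there, and its difference over 6 to 24 h was 0.16 (SE 0.33, limma adjusted p = 0.745).

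**Figure D2:**
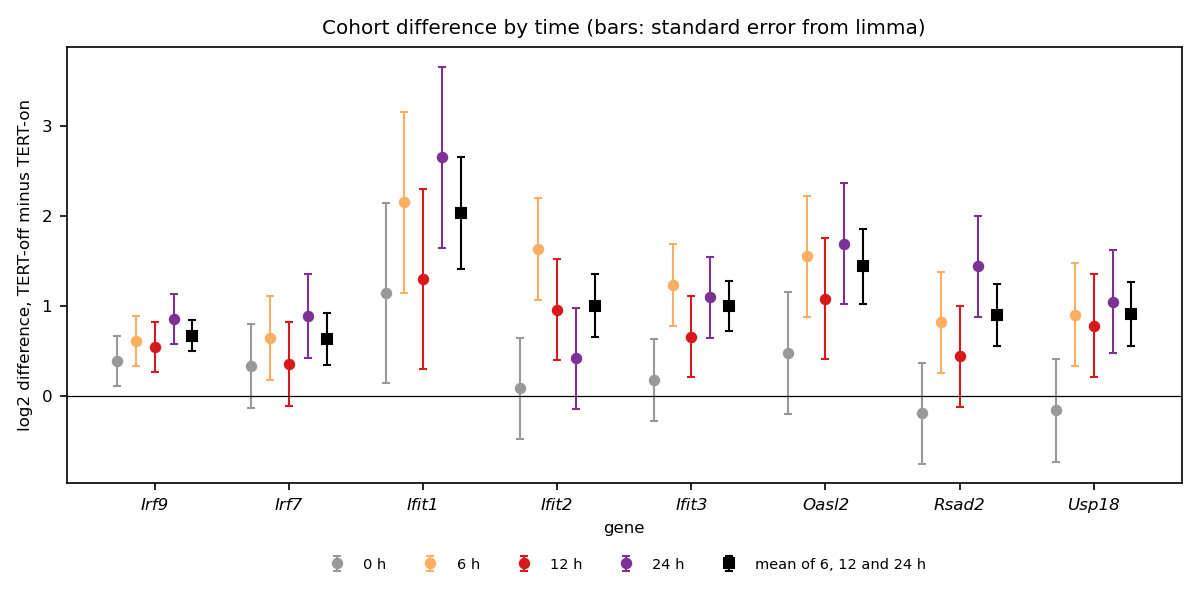
TERT-off minus TERT-on, as a log2 difference, for the 8 genes at 0, 6, 12 and 24 h (coloured points, 2 arrays against 2) and over 6 to 24 h (black squares, 6 arrays of 2 mice against 6 of 2 mice), with bars for the limma standard error. The black squares run from 0.63 for Irf7 to 2.03 for Ifit1, and the grey points of 0 h from −0.19 for Rsad2 to 1.14 for Ifit1.

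No single time gave a call, and single arrays set the order of the times. Before injection, 0 of 8 genes were called (0.0397% of all genes were, in either direction; 0 of 8 had an unadjusted p under 0.05), and the median difference was 0.25, or −0.30 without TERT-off replicate 1. At 6 h the median was 1.07 with 0 of 8 called (1.74% of all genes) and 4 of 8 at an unadjusted p under 0.05. At 12 h it was 0.72 with 0 of 8 called (2.57%) and 0 at an unadjusted p under 0.05, and at 24 h it was 1.07 with 0 of 8 called (2.42%) and 5 at an unadjusted p under 0.05. The median at 12 h was 1.27 without the 12 h array of TERT-on replicate 1 (4 of 8 at an unadjusted p under 0.05), and that at 24 h was 0.41 without the 24 h array of TERT-off replicate 2. The differences between times were not tested. The largest at 6 h were those of Ifit1 (2.15, SE 1.00, with 1 array at the floor), Ifit2 (1.63, SE 0.56) and Oasl2 (1.55, SE 0.67). The largest at 24 h were those of Ifit1 (2.65, SE 1.00), Oasl2 (1.69, SE 0.67) and Rsad2 (1.44, SE 0.56).

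Against its own 0 h arrays, TERT-off skin had a median change of 1.11 over 6 to 24 h, with all 8 genes above 0, from 0.24 for Irf9 to 1.43 for Oasl2. None of the 8 was called (0.493% of all genes were), and 5 had an unadjusted p under 0.05, Irf7, Ifit2, Ifit3, Oasl2 and Rsad2. In TERT-on skin the median change was 0.24, with 6 of 8 above 0 and 0 called (0.183% of all genes; 0 at an unadjusted p under 0.05). The change in TERT-off minus that in TERT-on skin had a median of 0.91 and was above 0 in all 8 genes, but 0 were called (0.00795% of all genes; 0 at an unadjusted p under 0.05), and the lowest limma adjusted p was 0.449, for Rsad2. That median was 0.23, with 6 of 8 above 0, without TERT-off replicate 2, and 1.55 when TERT-off replicate 1 was dropped. Without the 0 h array of low Gapdh ratio, the medians were 0.20 for the cohort difference at 0 h, 0.21 for the change in TERT-on skin and 0.78 for the difference of changes, again with 0 called in each. A change after injection and a difference between the mice from before it cannot be told apart here.

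The 4 mice followed different courses. Averaged over the 8 genes, the log2 intensity of TERT-off replicate 1 at the 4 times was 6.19, 6.87, 6.64 and 6.17, so that it ended where it began. That of TERT-off replicate 2 was 5.12, 5.93, 6.61 and 7.59, higher at each time than at the one before, and each of the 8 genes had its highest value of the 16 arrays at 24 h in this mouse. TERT-on replicate 1 went from 5.41 to 5.11, 6.43 and 5.75, and TERT-on replicate 2 from 5.34 to 5.31, 5.29 and 5.49. TERT-on replicate 2 thus stayed between 5.29 and 5.49, while TERT-on replicate 1 came close to the TERT-off mice at 12 h. The mean change from 0 h over the 8 genes had a median of 0.44 in TERT-off replicate 1, 1.45 in TERT-off replicate 2, 0.48 in TERT-on replicate 1 and 0.10 in TERT-on replicate 2. In TERT-off replicate 1, Ifit1 and Usp18 were lower after the injection than before it (−0.34 and −0.13).

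A single array decided calls in the comparison over 6 to 24 h, and single mice moved its median. When TERT-off replicate 1, the mouse of low hair keratins already at 0 h, was dropped, the median difference was 1.075. With the 24 h array of TERT-off replicate 2 left out, Irf9 alone was called and the median difference was 0.70. Without TERT-on replicate 1 the median was 1.13, and without TERT-on replicate 2 it was 0.87. A fit without 1 mouse has 1 array in each group of the cohort of that mouse. Its spread then comes from the other cohort alone, so counts of calls from such fits are not given.

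The 8 genes varied together over the 16 arrays: the Pearson r of each with the mean of the other members ran from 0.81 for Rsad2 to 0.96 for Oasl2 and Ifit3. These points share mice, libraries and times, and the values are a description. The genes outside the set whose log2 intensity was most like its mean were Zbp1 (r = 0.965), a sensor of left-handed nucleic acid, Rtp4 (0.952), Xaf1 (0.946), Lgals9 (0.941), Oas1a (0.932), Rnf213 (0.928), Pik3ap1 (0.927) and Slfn8 (0.927). All but Pik3ap1, an adaptor that links receptors of leukocytes to phosphoinositide 3-kinase, were in the lists of interferon-related genes below. They were chosen for their likeness over the same arrays, so their cohort differences are a description: from 0.91 for Rnf213 to 1.67 for Oas1a over 6 to 24 h.

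The rest of the pathway was followed by role, in lists of 147 genes of which 100 were tested. Over 6 to 24 h, 63 of the 100 were called higher and 1 lower, with a median difference of 0.66. Over all genes, 16.9% were called higher, the share to set beside the counts of the lists that follow. At 0 h none was called (0.0397% of all genes were, in either direction) and the median was 0.31. The change from 0 h in TERT-off minus that in TERT-on skin had a median of 0.40, with 0 called (0.00795% of all genes). At 6 h none was called (1.74% of all genes). At 12 h 2 were called higher (2.57%) and at 24 h 7 (2.42%), and none lower. The count at 12 h was thus near the share of all genes.

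Most ligand genes had low intensities. Of 10 interferon genes with a probe set of their own, 9 did not pass the filter on low values, and Ifnb1 did not exceed 16.5, Ifng 5.70 and the highest of the Ifna genes, Ifna2, 19.1 on any array. Ifnz (limitin), the only ligand tested, lay between 38.4 and 54.1 in TERT-off and between 23.5 and 43.3 in TERT-on skin after 0 h and was called higher (0.42, SE 0.14, limma adjusted p = 0.0439). It was not called under either other normalization. Without 1 of the 4 mice its difference ran from 0.248 to 0.595.

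Among receptors, kinases and STATs, 6 of 10 tested were called higher and none lower. They included the interferon-gamma receptor chain Ifngr1 (1.07, SE 0.17, limma adjusted p = 0.00355), the type I receptor chain Ifnar2 (1.06, SE 0.20, limma adjusted p = 0.00528) and the kinase Jak1 (0.81, SE 0.17, limma adjusted p = 0.00743). The median of this list was 0.49, and the count was 4 without TERT-off replicate 1, 2 when TERT-on replicate 1 was dropped and 0 when TERT-on replicate 2 was. Stat2, the partner of Irf9 in ISGF3, had a difference of 0.35 (SE 0.13) that did not pass (limma adjusted p = 0.0576).

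Of the nucleic acid sensors and adaptors, 9 of 15 tested were called higher and none lower, with a median of 0.46 (2 called when TERT-on replicate 1 was dropped and 0 when TERT-on replicate 2 was). The largest differences were those of the DNA sensor Ifi204 (1.66, SE 0.29, limma adjusted p = 0.00448), Zbp1 (1.32, SE 0.32, limma adjusted p = 0.0134) and the kinase Ikbke (1.04, SE 0.22, limma adjusted p = 0.00847). The RNA sensor Ifih1 and the DNA-signalling adaptor Sting1 were higher by 0.97 (SE 0.26) and 0.89 (SE 0.21), while the adaptor Mavs and the factor Irf3 were at −0.03 (SE 0.14) and −0.03 (SE 0.10).

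Of the other type I effectors, 29 of 45 tested were called higher and none lower, with a median of 0.87, close to the 0.95 of the 8 genes above. At 0 h, however, 41 of the 45 were above 0, with a median of 0.38 against 0.25 in the 8 genes. The change from 0 h in TERT-off minus that in TERT-on skin had a median of 0.46 against 0.91. Without TERT-on replicate 1 the count was 8, and without TERT-on replicate 2 it was 1. The largest were Slfn4, a Schlafen gene of myeloid cells (2.18, SE 0.45, limma adjusted p = 0.00773), the restriction factor Ifitm1 (2.07, SE 0.21, limma adjusted p = 0.000537) and Ifi27l2a (1.88, SE 0.23, limma adjusted p = 0.00146). Well-known members that did not pass were Mx1 (0.97, SE 0.36, limma adjusted p = 0.0666), Isg20 (0.58, SE 0.20, limma adjusted p = 0.0509) and Eif2ak2, the double-stranded RNA kinase (0.23, SE 0.14, limma adjusted p = 0.23); these were singled out after their values were seen.

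Genes listed here as induced by interferon gamma were called higher in 15 of 18 tested and lower in none, with a median of 0.78. At 0 h, 17 of the 18 were above 0, with a median of 0.38. The change from 0 h in TERT-off minus that in TERT-on skin had a median of 0.455. The count was 7 without the 24 h array of TERT-off replicate 2, 9 without TERT-off replicate 1, 5 when TERT-on replicate 1 was dropped and 0 when TERT-on replicate 2 was. The leading ones were the myeloid factor Irf8 (1.19, SE 0.26, limma adjusted p = 0.00891) and the guanylate-binding proteins Gbp7 (1.14, SE 0.23, limma adjusted p = 0.00685) and Gbp3 (1.06, SE 0.33, limma adjusted p = 0.0343). Cxcl9, a chemokine of the same response, was at 0.05 (SE 0.40, limma adjusted p = 0.938).

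Of the negative regulators, 3 of 11 tested were called higher and 1 lower, with a median of 0.15 (1 higher and 0 lower without TERT-off replicate 1, and none either way without either TERT-on mouse). Those higher were Pias3 (0.62, SE 0.17, limma adjusted p = 0.0203), the phosphatase Ptpn6 of blood cells (0.50, SE 0.13, limma adjusted p = 0.018) and Irf2 (0.50, SE 0.15, limma adjusted p = 0.0319), and the phosphatase Ptpn11 was lower (−0.33, SE 0.08, limma adjusted p = 0.0163). Socs1, a feedback inhibitor of JAK kinases, was at −0.03 (SE 0.31, limma adjusted p = 0.947). With 16.9% of all genes called higher, the count of this list was nearer to that share than those of the lists above.

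**Figure D3:**
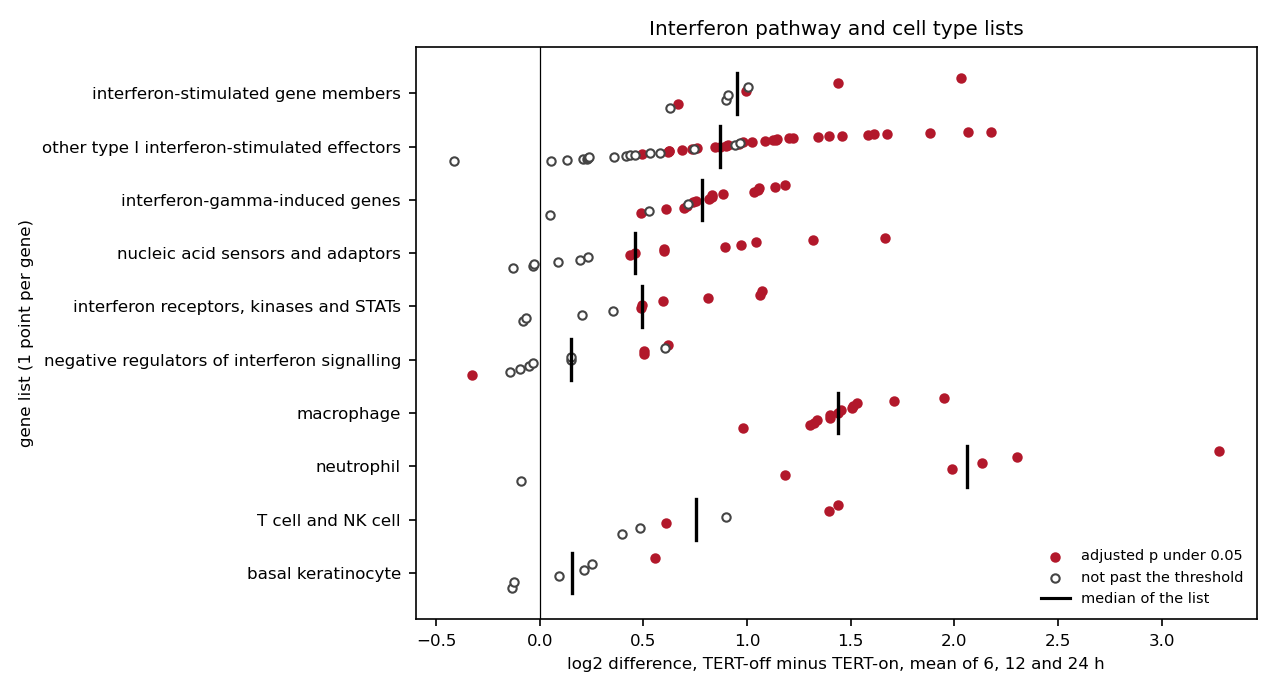
TERT-off minus TERT-on, as a log2 difference, over 6 to 24 h (x axis) for each tested gene of 6 interferon lists and 4 cell type lists (y axis), with filled red points for a limma adjusted p under 0.05 and black bars for the list medians. Medians of the interferon lists run from 0.15 for the negative regulators to 0.95 for the 8 genes, and the macrophage and neutrophil lists lie further to the right, at 1.44 and 2.06.

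Markers of leukocytes moved with the same comparison, and their part in the interferon-stimulated genes was not tested. The share of all genes called higher over 6 to 24 h was 16.9%. All 13 macrophage markers tested were called higher over 6 to 24 h, with a median of 1.44, among them Itgam (1.95), Cd163 (1.71) and Cd68 (1.51). The summed intensity of that list was 8240 to 19449 in TERT-off and 4549 to 9069 in TERT-on skin after 0 h. At 0 h it was 5558 to 8410 and 3022 to 5793, with a median difference of 0.84 and none called. The 13 calls became 8 when TERT-on replicate 1 was dropped and 0 when TERT-on replicate 2 was, with a median of 1.22 in the latter fit.

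Of 6 neutrophil markers tested, 5 were called higher, with a median of 2.06, and the sum of the list was 1169 to 9332 in TERT-off and 456 to 1077 in TERT-on skin after 0 h. The cohorts were apart at 0 h too, with sums of 763 to 1021 and 135 to 322. The median difference at 0 h was 0.55, with none called (0.0397% of all genes). Over 6 to 24 h, S100a9 had the largest difference of that list (3.28), while Ngp was at −0.09. The median over these times was 2.00 without TERT-on replicate 2 and 1.90 without the 24 h array of TERT-off replicate 2. Camp, Ltf, Mpo and Elane did not pass the filter. Of 6 T cell and NK cell markers, 3 were called higher (median 0.75), and their sums were 328 to 579 and 201 to 323. The median was 0.55 without TERT-on replicate 2 and 0.98 without TERT-off replicate 2. Of 7 Langerhans and dendritic cell markers, 1 was called, Cd86 (1.14), with a median of 0.47 and overlapping sums of 4673 to 8577 and 4518 to 6976. Of 7 markers of plasmacytoid dendritic cells, known as strong producers of type I interferon, 2 were tested and 0 called, both above 0. Their median was 0.63 and their sums were 382 to 1108 and 277 to 787, while the defining marker Siglech did not exceed 32.0 on any array.

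Of 6 basal keratinocyte markers, 1 was called higher (Col17a1, median of the list 0.15), and of 5 suprabasal markers 1 was called lower (Flg, median 0.08). Over all 12580 genes, 2122 were called higher and 1588 lower, so single calls in lists this small are near the share of all genes. Of 12 hair shaft keratins, 11 were called lower (median −4.43), with sums from 274 to 22800 in TERT-off and from 6490 to 30339 in TERT-on skin after 0 h. At 0 h their median difference was −1.63 with none called, and the sum was 375 in TERT-off replicate 1, against 28171 in the other TERT-off mouse. The median over 6 to 24 h was −2.69 without TERT-off replicate 1 and −6.12 without the other TERT-off mouse. Fibroblast markers were called higher in 6 of 7 (median 0.59), endothelial markers in 4 of 6 (0.48) and skeletal muscle genes in 2 of 5 (0.40). Without TERT-on replicate 2, the medians of the hair, fibroblast, endothelial and muscle lists were −3.45, 0.58, 0.63 and 0.56.

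**Figure D4:**
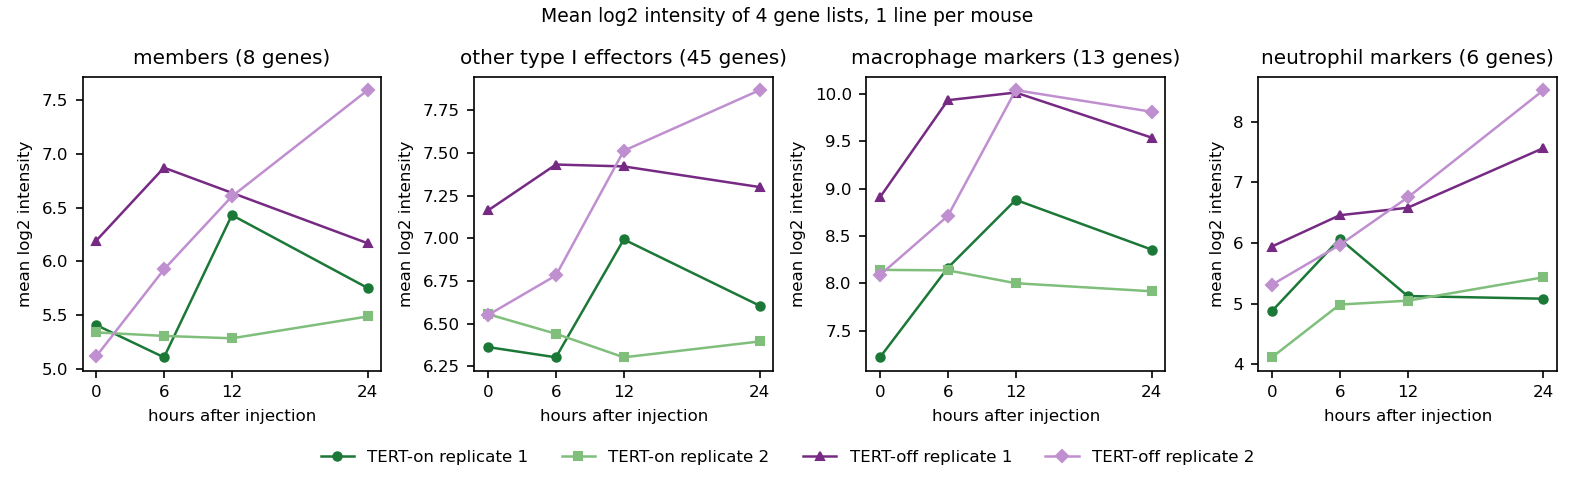
Mean log2 intensity of 4 gene lists against time in hours, where each line is a mouse in the colours of the plot of single genes: the 8 interferon-stimulated genes, 45 other type I effectors, 13 macrophage markers and 6 neutrophil markers. The bump of TERT-on replicate 1 at 12 h is seen in the members (6.43), the other effectors (6.99) and the macrophage markers (8.88), and the neutrophil mean of TERT-off replicate 2 reached 8.52 at 24 h.

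Set beside the courses of the mice, the mean log2 intensity of the macrophage list was 8.91, 9.94, 10.02 and 9.54 over the 4 times in TERT-off replicate 1 and 8.09, 8.71, 10.04 and 9.81 in TERT-off replicate 2. In TERT-on replicate 1 it was 7.22, 8.16, 8.88 and 8.36, and in TERT-on replicate 2 it was 8.14, 8.14, 8.00 and 7.92. The macrophage mean and that of the 8 genes were highest at 12 h in TERT-on replicate 1, at 12 h and 6 h in TERT-off replicate 1, at 12 h and 24 h in TERT-off replicate 2, and at 0 h and 24 h in TERT-on replicate 2. The neutrophil mean was highest at 24 h in both TERT-off mice, at 7.57 and 8.52.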

How the data were processed

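Total RNA of 16 dorsal skin biopsies was hybridised to Affymetrix whole-genome mouse arrays, 1 colour and 1 array per biopsy. The authors' deposited values are linear intensities, 1 per probe set, for which dChip was used to normalize on an invariant probe set and to model perfect-match minus mismatch signal. In the platform annotation 34958 of 45101 probe sets had a single symbol, 932 had more than 1 and 9211 had none. The table had 1425 empty cells, and 64 controls were dropped. Intensities below 7.71 (the 20th percentile) were set to that floor before log2. Only probe sets that exceeded the table median (34.4) on at least 2 arrays were tested, 25563 for 12580 genes, and a gene with several was represented by the one of highest mean. Comparisons came from 1 limma fit (version 3.58.1, R 4.3.3, statmod 1.5.0) of the 8 groups, with mouse as random block (consensus correlation 0.0728) and an intensity trend, two-sided, with Benjamini-Hochberg adjustment over all probe sets and a threshold of 0.05. The fit was tested on simulated data with independent noise on each array, so that test did not cover serial biopsies of 1 mouse. The 2 mice of each cohort limit the precision. The 6 arrays of a cohort over 6 to 24 h are serial biopsies of these mice. With 1 low correlation shared by all genes, the fit treats them almost as independent. Its SE and adjusted p can therefore be too small for genes that differ more between mice. By rule, the text names all members, up to 3 called genes with the largest differences in each pathway list, up to 2 leading markers of a cell type and the 8 genes most like the members. Other pathway genes and markers named were chosen after their values were seen. Members and lists were chosen with earlier results of these data known. SAM, which the methods name, was not run, and figures were drawn with matplotlib 3.10.9. Alternatives covered the floor, filter, normalization, blocks, moderation, probe sets per gene, and single mice or arrays left out.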

Additional observations from a re-analysis of the deposited data

How the results depend on the processing

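The 4 calls over 6 to 24 h became 1 without the filter on low values and 1 without the 24 h array of TERT-off replicate 2 (left out after seeing the data), Irf9 both times; over that result's alternatives the adjusted p of Irf9 ran from 0.00408 to 0.197. With the replicate number as a block across cohorts the count was 7. The labels do not pair same-numbered mice of the 2 cohorts, whose deviations correlated between −0.125 and 0.099. For arrays taken as the same mouse, r ran from −0.149 to 0.323 in TERT-on and from 0.12 to 0.637 in TERT-off skin. These ranges overlap in part, so they cannot decide whether the number carries a shared batch. Leaving out 1 mouse gave 0 to 7 calls over 6 to 24 h (7 when TERT-off replicate 1 was dropped, 5 when TERT-off replicate 2 was, and 0 when either TERT-on mouse was), 0 to 3 at 6 h (3 without TERT-off replicate 2) and 0 to 1 at 24 h (1 without TERT-off replicate 1). The median difference at 0 h was −0.30 when TERT-off replicate 1 was dropped, with 2 of 8 genes above 0, in place of 0.25. The causes of these shifts were not tested. Under the other alternatives run, the count over 6 to 24 h was 3 to 5, and the difference of each of the 8 genes was above 0 under every alternative run. With the mouse as a fixed block, the cohort differences cannot be estimated. The counts at 0 h and 12 h and of the changes from 0 h were 0 throughout. Signal over background limits Ifit1, which was under or near the floor on several arrays: its difference was 1.75 with the floor at the 30th percentile, and 1.53 when TERT-on replicate 2 was dropped.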
